A study of Mus musculus with 6 samples.

Results

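Prl2c2, Prl2c3 and Prl2c5, the mouse proliferin genes, are 3 of the 18001 genes measured by poly(A) RNA-sequencing in NIH/3T3 cells, an immortalized mouse embryonic fibroblast line. They were selected on measured values, because they showed the strongest increase after Aldoa knockdown, so their levels are given as a description without a test. The siAldoa group received pooled siRNAs that target Aldoa, the gene of the glycolytic enzyme aldolase A, and the siCtrl group non-targeting siRNAs. Both groups were harvested at 48 h and comprised 3 libraries each, which the study describes as biological replicates. The knockdown acts through 1 pool of siRNAs in 1 cell line, so effects of single siRNAs cannot be told apart.

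Proliferins are secreted glycoproteins of the prolactin and placental lactogen family. In the mouse placenta they are made by trophoblast giant cells and are known for promoting the growth of blood vessels, and in cultured fibroblasts they were first known as messages that serum and growth factors induce in proliferating cells. The secreted protein carries mannose 6-phosphate and binds the cation-independent mannose 6-phosphate receptor, the product of Igf2r, and AP-1 and the glucocorticoid receptor are classical regulators of a proliferin promoter.

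The 3 genes lie within 401 kb of chromosome 13 of GRCm38 (mm10) and overlap no other annotated gene. Prl2c3 (ENSMUSG00000056457) spans chr13:12790816-12800079 and Prl2c2 (ENSMUSG00000079092) chr13:12996125-13005383, both on the minus strand. Prl2c5 (ENSMUSG00000055360) spans chr13:13182715-13191923 on the plus strand. Each gene has 5 exons in the GENCODE transcript used here, and the transcripts are 842 bases (Prl2c2), 857 bases (Prl2c3) and 844 bases (Prl2c5) long. Another gene of the same subfamily, Prl2c1 (ENSMUSG00000062551), lies 14.7 Mb away at chr13:27849342-27857788 on the plus strand. Prl2c1 was not among the selected genes, and it is described for comparison.

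How far reads can be assigned to a single proliferin gene depends on the bases that tell the copies apart. The transcripts of Prl2c2 and Prl2c3 differ at 4 of 842 aligned bases (99.5% identity). Of these, 1 lies in the 5′ untranslated region and 3 in the coding region, where they are T14C in exon 1, C200A in exon 2 and T319G in exon 4 (Prl2c2 base first, counted from 1 at the A of the start codon). Prl2c5 differs from Prl2c2 at 28 aligned bases (96.6% identity) and lacks 6 coding bases. Prl2c1 differs from Prl2c2 at 61 aligned bases (92.7% identity). The coding bases 257 to 376, which run from exon 3 into exon 4, are shown because they hold 1 of the positions that separate Prl2c3 from Prl2c2 and 9 that separate Prl2c5 from Prl2c2, with every base that differs from Prl2c2 in capitals.
Prl2c2: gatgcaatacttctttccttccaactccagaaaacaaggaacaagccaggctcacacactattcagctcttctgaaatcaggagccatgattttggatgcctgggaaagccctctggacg
Prl2c3: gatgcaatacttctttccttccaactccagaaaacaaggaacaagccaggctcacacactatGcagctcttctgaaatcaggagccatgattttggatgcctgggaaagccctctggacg
Prl2c5: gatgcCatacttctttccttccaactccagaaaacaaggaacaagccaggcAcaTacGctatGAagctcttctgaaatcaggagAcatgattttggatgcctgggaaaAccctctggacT
Prl2c1: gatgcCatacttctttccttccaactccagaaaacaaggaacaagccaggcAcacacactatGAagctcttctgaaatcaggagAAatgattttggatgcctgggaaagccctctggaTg
Within this stretch Prl2c1 has 7 differences from Prl2c2. A read from these bases can tell Prl2c2 from Prl2c3 only if it covers the single capital of Prl2c3, whereas the positions that separate Prl2c5 are spread over the stretch.

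**Figure D1:**
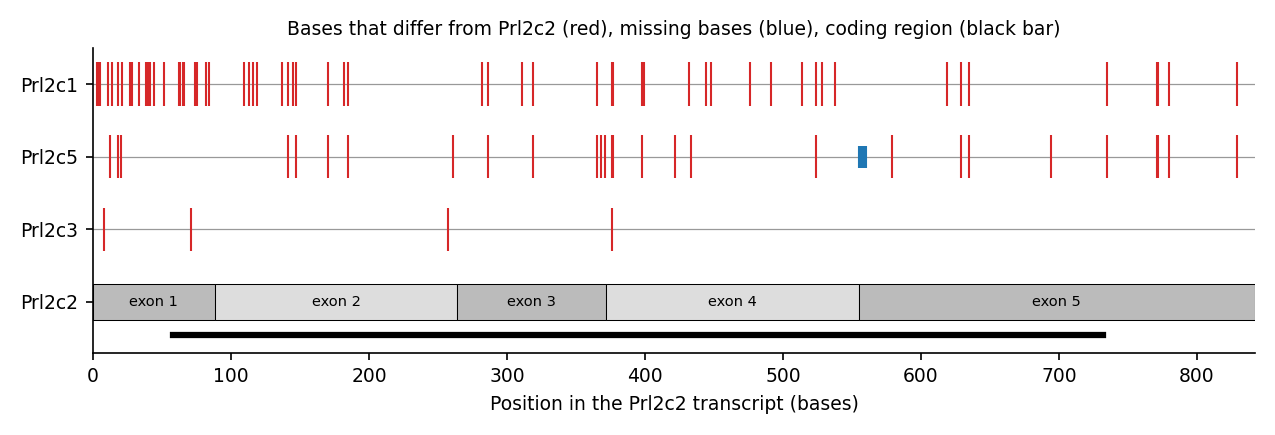
Positions along the Prl2c2 transcript (x axis, bases; 5 exons as grey boxes, coding region as a black bar) at which the transcripts of Prl2c3, Prl2c5 and Prl2c1 differ from it (red) or lack bases (blue). Prl2c3 has 4 differing bases, none of them in exon 3 or 5, whereas Prl2c5 has 28 and Prl2c1 has 61 spread over the 5 exons.

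The same limit was expressed as the share of all 75-base windows of a transcript that occur in no other annotated gene. It was 19.9% for Prl2c2 and 30.1% for Prl2c3, against 80.4% for Prl2c5 and 84.7% for Prl2c1. The windows were cut from spliced transcripts and include those that cross exon junctions, whereas the reads were aligned to the genome. Windows across a junction may stand for no aligned read, so these shares are not shares of assignable reads. The coding differences between Prl2c2 and Prl2c3, at Prl2c2 transcript positions 71, 257 and 376, lie near exon ends (88, 264 and 372). Prl2c2 shared 71.2% of its windows with Prl2c3 and 8.20% with Prl2c5. The only annotated gene outside the subfamily to share a window was Gm7040. With windows of 50 bases the share found in Prl2c2 alone was 10.5%, and with 100 bases it was 33.6%. The read length and the treatment of reads that map to several places are not given in the sources used here. For these reasons the summed CPM (the deposited reads per gene, scaled to an effective library size) of the 3 genes is the quantity that depends least on how the copies were told apart, and the division between Prl2c2 and Prl2c3 is uncertain.

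The summed proliferin level was 8.22, 9.03 and 8.73 CPM in siCtrl replicates 1, 2 and 3, and 97.2, 87.9 and 100.8 CPM in siAldoa replicates 1, 2 and 3. All siAldoa libraries lay far above all siCtrl libraries. The mean rose from 8.66 ± 0.410 CPM (SD, n = 3) in siCtrl to 95.3 ± 6.64 CPM (SD, n = 3) in siAldoa, a ratio of 11.0. On the log2(CPM + 1) scale the difference was 3.32. These values rest on 30, 33 and 33 reads in the siCtrl libraries and on 360, 329 and 385 reads in the siAldoa libraries. The ratio of the pooled reads, corrected for library size, was 11.2 with a 95% interval of 9.07 to 13.9, which covers counting error only. The coefficient of variation between replicates was 4.73% in siCtrl and 6.96% in siAldoa, where counting error alone gives 17.7% and 5.29%. Among the 18001 genes a level equal to the sum would have stood at rank 10364 in siCtrl and at rank 2611 in siAldoa.

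On the log2(CPM + 1) scale Prl2c2 stood first of all 18001 genes in the order of log2 fold changes. This order depends on the treatment of low counts, and Prl2c2 ranked 4 with a pseudocount of 0.1, 36 in edgeR and 18 in DESeq2, with Slc6a12, which had no read in siCtrl, first under those settings. Its level was 3.29, 4.65 and 3.97 CPM in siCtrl replicates 1, 2 and 3, from 12, 17 and 15 reads. In siAldoa it was 49.9, 46.0 and 51.8 CPM, from 185, 172 and 198 reads. The groups did not overlap, and the lowest siAldoa library was many times the highest siCtrl library. The means were 3.97 ± 0.682 CPM and 49.2 ± 3.00 CPM (SD, n = 3), a ratio of 12.4 and a log2(CPM + 1) difference of 3.35. In the order of expression levels Prl2c2 moved from rank 11939 to rank 5021.

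Prl2c3 was second in the same order, and ranked 11 with a pseudocount of 0.1, 49 in edgeR and 36 in DESeq2. It had 4.93, 4.38 and 4.50 CPM in siCtrl replicates 1, 2 and 3, from 18, 16 and 17 reads, and 44.3, 40.4 and 46.1 CPM in siAldoa replicates 1, 2 and 3, from 164, 151 and 176 reads. Again the groups were separated by a wide gap. The mean level was 4.60 ± 0.291 CPM in siCtrl and 43.6 ± 2.93 CPM in siAldoa (SD, n = 3), a ratio of 9.47 and a log2(CPM + 1) difference of 2.99. Per kilobase of transcript, Prl2c2 had 4.71 CPM and Prl2c3 5.37 CPM in siCtrl, and 58.5 and 50.8 CPM in siAldoa. The order of the pair per kilobase differed between the groups, but in siCtrl it rested on 44 and 51 pooled reads and is not established. The intervals of the pooled read ratios of Prl2c2 (12.6, 9.27 to 17.6) and Prl2c3 (9.63, 7.21 to 13.1) overlapped.

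Prl2c5 was close to the limit of detection. No read was assigned to it in siCtrl replicates 1 and 2 and 1 read (0.265 CPM) in replicate 3. In siAldoa it had 11, 6 and 11 reads, which correspond to 2.97, 1.60 and 2.88 CPM (mean 2.48 ± 0.764, SD, n = 3). Every siAldoa library exceeded the level of 3 reads (0.79 to 0.82 CPM) and no siCtrl library did. Prl2c5 shares 8.18% of its 75-base windows with Prl2c2, and whether reads of the abundant copies contributed to its count was not tested. The pooled read ratio was 28.0 with an exact counting interval of 4.63 to 1145, so the size of the change could not be determined at this depth. Its log2(CPM + 1) difference of 1.66 placed Prl2c5 at rank 10, and it ranked 2 with a pseudocount of 0.1, 11 in edgeR and 3 in DESeq2.

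**Figure D2:**
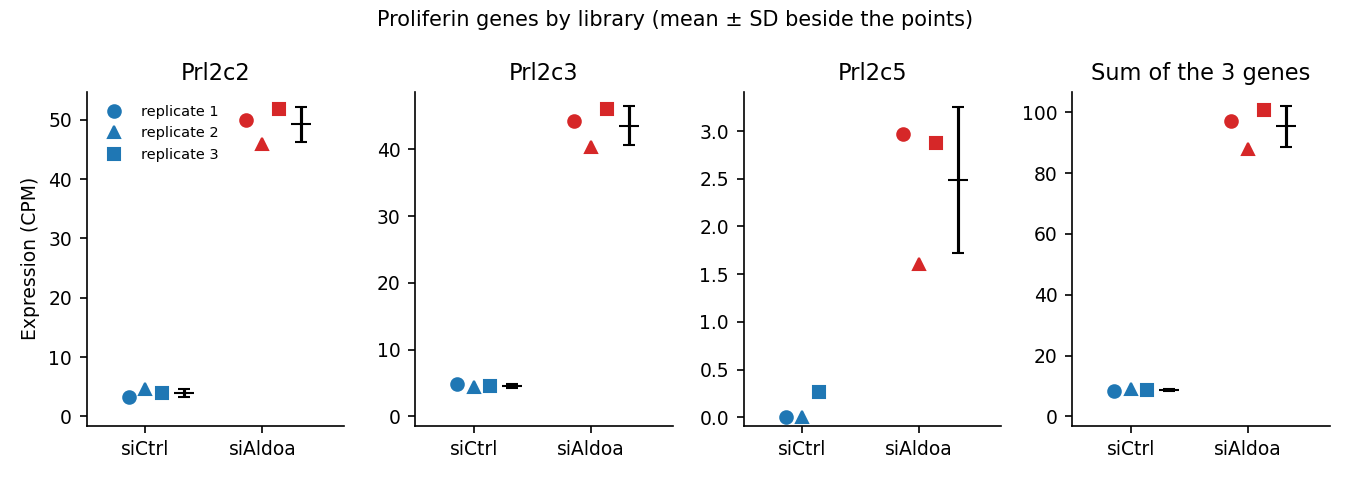
Expression (CPM, linear y axes that differ between panels) of Prl2c2, Prl2c3, Prl2c5 and their sum in 3 siCtrl (blue) and 3 siAldoa (red) libraries, with mean ± SD in black beside the points (not drawn for Prl2c5 in siCtrl, where 2 libraries are at 0). The summed level lies between 8.22 and 9.03 CPM in siCtrl and between 87.9 and 100.8 CPM in siAldoa.

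On the log2(CPM + 1) scale, the genes next to the proliferins in the order of log2 fold changes were well separated from the first 2 places. That separation did not hold under the other treatments of low counts, where Prl2c2 and Prl2c3 ranked lower. After Prl2c2 (3.35) and Prl2c3 (2.99) followed Csf1r (2.18), which encodes the receptor of macrophage colony-stimulating factor, Cp (1.99), which encodes ceruloplasmin, and Arrdc4 (1.94), which encodes an arrestin-domain protein. Prl2c5 stood between Gm12138 (1.67) and Slc6a12 (1.64), which encodes a betaine and GABA transporter. Since the proliferins were chosen from this order, their places in it describe the selection. Over all genes, limma on log2(CPM + 1) called 10.4% higher and 10.0% lower in siAldoa at an adjusted p under 0.05. Aldoa itself fell from 522, 536 and 545 CPM in siCtrl to 62.9, 69.2 and 72.0 CPM in siAldoa.

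**Figure D3:**
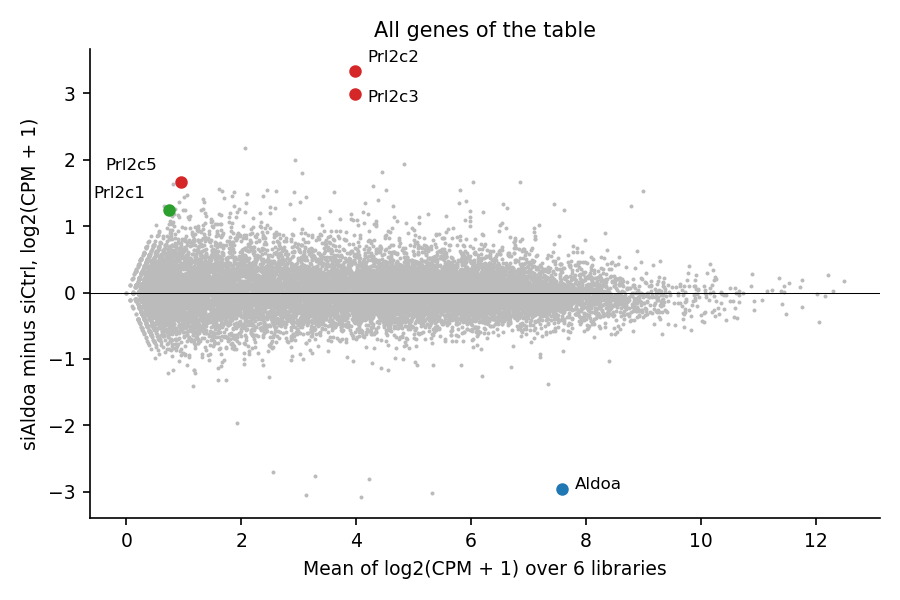
Difference between siAldoa and siCtrl (y axis, log2(CPM + 1)) against the mean of log2(CPM + 1) over 6 libraries (x axis) for 18001 genes (grey), with the selected proliferin genes in red, Prl2c1 in green and Aldoa in blue. Prl2c2 (3.35) and Prl2c3 (2.99) lie above all other genes at a middle expression level, and Prl2c5 (1.66) and Prl2c1 (1.24) lie near the low end.

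The division of the proliferin reads between the copies was similar in both groups within counting error. Prl2c2 took 40.0%, 51.5% and 45.5% of the summed reads in siCtrl replicates 1, 2 and 3. In siAldoa, with about an order of magnitude more reads, it took 51.4%, 52.3% and 51.4%. Pooled, this is 45.8% (95% Clopper-Pearson interval 35.6 to 56.3%) in siCtrl and 51.7% (48.6 to 54.7%) in siAldoa. The pooled share of Prl2c3 was 53.1% (42.7 to 63.4%) in siCtrl and 45.7% (42.7 to 48.8%) in siAldoa. Prl2c5 took 1.04% (0.0264 to 5.67%) in siCtrl and 2.61% (1.74 to 3.75%) in siAldoa. The reads of siCtrl are too few to show a shift of this size between the copies.

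**Figure D4:**
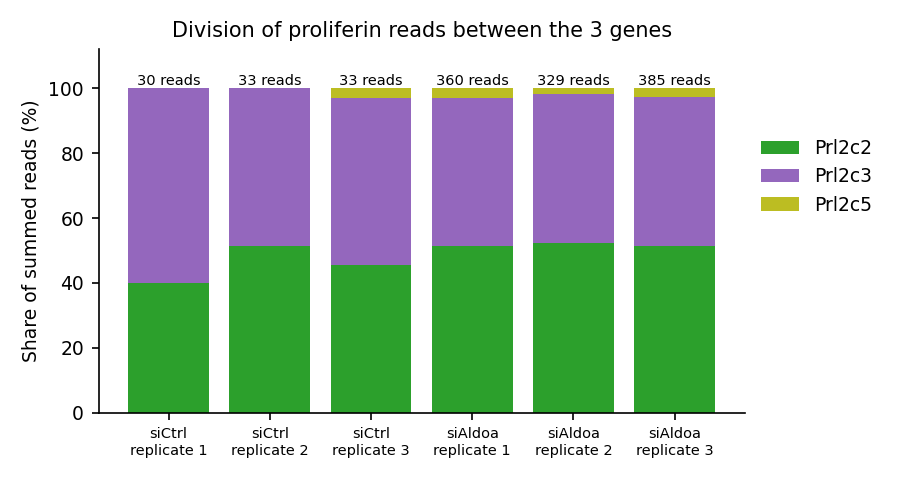
Share (%) of the summed proliferin reads assigned to Prl2c2, Prl2c3 and Prl2c5 in each library, with the number of summed reads above each bar. Prl2c2 takes 51.4 to 52.3% in the siAldoa libraries and 40.0 to 51.5% in the siCtrl libraries, which rest on 30 to 33 reads.

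Of 24 other members of the prolactin family that were looked up, Prl2c1 was the only one in the table. It had 1, 0 and 0 reads in siCtrl replicates 1, 2 and 3, and 8, 6 and 4 reads in siAldoa replicates 1, 2 and 3, or 2.16, 1.60 and 1.05 CPM. Every siAldoa library was above every siCtrl library, as for the selected genes. In limma its log2 fold change of 1.24 had a standard error of 0.27 and an adjusted p of 0.0014. Without replicate 3 of both groups the adjusted p of Prl2c1 from limma was 0.051, DESeq2 gave it no adjusted p, and the filter on low values removed it. The read ratio of 18.0 had an exact counting interval of 2.84 to 750. Prl2c1 shares 6.04% of its 75-base windows with Prl2c2, and whether reads of the abundant copies contributed to its count was not tested.

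The neighbours of the proliferins on chromosome 13 were looked up as well. Of 73 annotated genes that start within 1 Mb of the outermost copies, 18 were in the table, and 3 of them were higher in siAldoa and none lower, where 10.4% of all genes were called higher and 10.0% lower, with a median log2 fold change of 0.012 against -0.0023 over all genes. The closest in the table, the pseudogenes Gm2423 and Gm2399, start 50.2 and 97.7 kb from a proliferin start site. Gm2423 had 80.3 ± 6.18 CPM in siCtrl and 72.4 ± 2.13 CPM in siAldoa (SD, n = 3), with overlapping groups. The 3 genes that rose were Gpr137b, a lysosomal membrane protein gene (0.53, limma adjusted p = 9.7e-06), Nid1, which encodes the basement membrane protein nidogen 1 (0.21, adjusted p = 0.00018), and Lyst, a regulator of lysosome size (0.56, adjusted p = 0.0071). They start 211, 255 and 408 kb away. Without replicate 3 of both groups 1 of the 3 passed, and 2 passed without siCtrl replicate 1, without siAldoa replicate 2 or without replicate 1 of both groups.

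Promoter sequences are shown because the reads assigned to each copy were higher in siAldoa. Since the copies share reads, it is uncertain how far each single copy rose. Those from RefSeq (GRCm38.p6) were at hand for Prl2c3 and Prl2c5, and not for Prl2c2. The first 250 bases of each RefSeq window, which end at the start site, are shown for both, at chr13:12800080-12800329 (minus strand) for Prl2c3 and chr13:13182466-13182715 (plus strand) for Prl2c5, with capitals where the copies differ. The last base of the Prl2c5 stretch is the first base of its GENCODE transcript.
Prl2c3: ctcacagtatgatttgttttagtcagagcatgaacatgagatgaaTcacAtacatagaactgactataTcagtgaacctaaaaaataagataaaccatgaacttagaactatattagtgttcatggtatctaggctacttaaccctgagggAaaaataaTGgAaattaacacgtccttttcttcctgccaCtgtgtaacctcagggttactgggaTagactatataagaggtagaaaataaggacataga
Prl2c5: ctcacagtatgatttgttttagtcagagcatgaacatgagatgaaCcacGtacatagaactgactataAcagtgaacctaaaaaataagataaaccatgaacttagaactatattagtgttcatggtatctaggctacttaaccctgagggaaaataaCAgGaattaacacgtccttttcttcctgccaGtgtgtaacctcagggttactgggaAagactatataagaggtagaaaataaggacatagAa
They were identical at 241 of 249 aligned bases (96.8%). The AP-1 pattern TGANTCA, searched on both strands, occurred in Prl2c3, starting 209 bases before the start site, and 1 of its bases is a position at which Prl2c5 differs, so that the pattern was absent there. It occurs in 7.81% of the 32851 mouse promoter windows of 300 bases. TATAAA (13.6% of windows), CCAAT (37.4%), the E-box CACGTG (7.15%), the cyclic AMP response element TGACGTCA (1.79%), the CArG box (1.63%) and the glucocorticoid response element (0.00913%) had no match in either window. These are exact matches of letters only, so variants such as TATATAA, which both printed stretches hold, were not counted.

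AP-1 is a dimer of Fos, Jun and related basic leucine zipper proteins. Of 12 AP-1 genes listed, 10 were in the table, of which 4 were higher and 1 lower, with a median log2 fold change of 0.18, where 10.4% and 10.0% of all genes were called higher and lower and their median was -0.0023. Fosl2, which encodes the Fos-related protein FRA2, had 227, 240 and 236 CPM in siCtrl replicates 1, 2 and 3, and 425, 450 and 433 CPM in siAldoa replicates 1, 2 and 3. The groups of Fosl2 were clearly apart (log2 fold change 0.89, standard error 0.042, limma adjusted p = 2.2e-13). Maff (0.79, limma adjusted p = 6.2e-07), Junb (0.50, adjusted p = 0.020) and Mafk (0.32, adjusted p = 0.0041) also rose, and Fosl1, which encodes FRA1, fell by 0.18 (adjusted p = 0.034). Maff and Mafk are not members of the Fos or Jun families, in which Fosl2 and Junb were called higher and Fosl1 lower. Jun, the classical partner in AP-1, had 63.6 ± 4.02 CPM in siCtrl and 59.7 ± 4.06 CPM in siAldoa (SD, n = 3), and Fos was at or below 1.08 CPM in every library. Only 3 of these genes passed without siCtrl replicate 1 or 3, without siAldoa replicate 2 or 3, or in DESeq2, and 2 passed without replicate 1 or without replicate 3 of both groups.

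The glucocorticoid receptor gene Nr3c1 had 221 ± 6.37 CPM in siCtrl and 241 ± 9.71 CPM in siAldoa (SD, n = 3; log2 fold change 0.12, limma adjusted p = 0.075). The list of this receptor and genes it is known to induce held 13 genes in the table out of 15, of which 8 were higher and 1 lower (10.4% and 10.0% over all genes; median log2 fold change 0.29). Dusp1, a phosphatase that inactivates MAP kinases, had 30.4, 30.4 and 34.4 CPM in siCtrl replicates 1, 2 and 3, and 87.4, 95.9 and 100.02 CPM in siAldoa replicates 1, 2 and 3 (log2 fold change 1.54, limma adjusted p = 2.2e-12). The metallothionein genes Mt2 (1.08) and Mt1 (1.02) and the transcription factor gene Cebpd (1.05) followed. Fkbp5, which encodes a co-chaperone of the receptor and is itself a common marker of its activity, fell by 0.60 (limma adjusted p = 6.9e-07), and Tsc22d3, another such marker, had 18.2 ± 2.73 and 22.3 ± 3.38 CPM (SD, n = 3) in overlapping groups. Without replicate 1 of both groups 5 of the 9 calls in this list were left.

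Genes of the growth factor systems that act on fibroblasts were also looked up, since proliferins are known as growth factor-induced messages. Of 20 listed, 15 were in the table, of which 6 were higher and 1 lower (10.4% and 10.0% over all genes; median 0.18). Ereg, which encodes the EGF receptor ligand epiregulin, rose from 58.0 ± 2.57 to 148 ± 12.1 CPM (SD, n = 3; log2 fold change 1.33, limma adjusted p = 1.1e-12). The receptor genes Pdgfrb (1.14), Egfr (0.93), Pdgfra (0.50) and Fgfr1 (0.50) and the ligand gene Tgfb3 (0.61) rose as well, and Tgfbr2, a TGF-beta receptor gene, fell by 0.37. Without replicate 3 of both groups 3 of these 7 calls were left.

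On the side of the receptors, Igf2r had 145, 136 and 132 CPM in siCtrl replicates 1, 2 and 3, and 197, 210 and 200 CPM in siAldoa replicates 1, 2 and 3. All siAldoa libraries were higher than all siCtrl libraries (log2 fold change 0.55, standard error 0.051, limma adjusted p = 2.8e-08). M6pr, which encodes the smaller, cation-dependent mannose 6-phosphate receptor, had 151 ± 12.8 CPM in siCtrl and 146 ± 4.31 CPM in siAldoa (SD, n = 3), with overlapping groups. In the list of receptors and of proteins that attach or sort mannose 6-phosphate, 10 of 11 genes were in the table, of which 4 were higher and none lower, against 10.4% and 10.0% of all genes (median 0.16). Besides Igf2r these were Gnptg (0.53) and Nagpa (0.46), which act in adding mannose 6-phosphate to proteins, and the sorting adaptor gene Gga2 (0.36). The count of this list fell to 1 call without siCtrl replicate 3, without siAldoa replicate 3, without replicate 3 of both groups or in DESeq2, and to 2 without siCtrl replicate 2, without siAldoa replicate 2 or without replicate 1 of both groups.

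**Figure D5:**
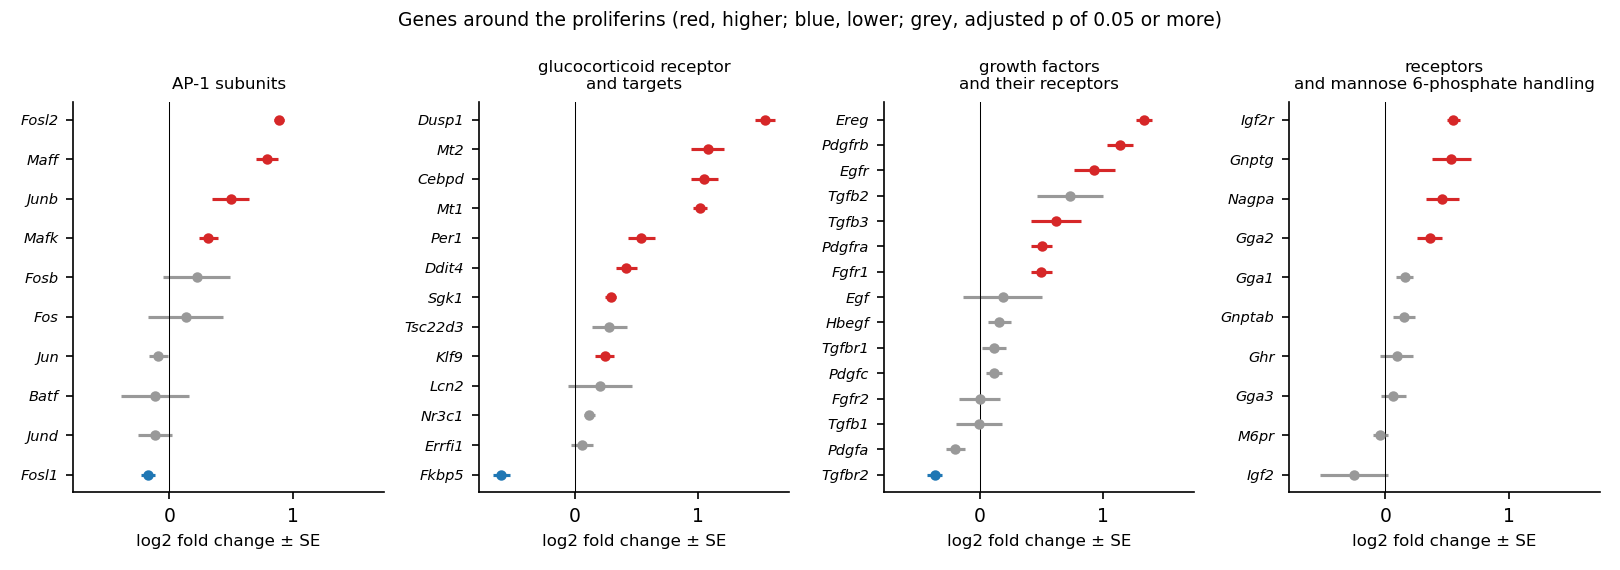
Log2 fold change ± standard error (x axis, limma on log2(CPM + 1), siAldoa against siCtrl, 3 libraries each) of the genes listed around the proliferins, by list, with calls at an adjusted p under 0.05 in red (higher) or blue (lower) and other genes in grey. Dusp1 (1.54), Ereg (1.33), Fosl2 (0.89) and Igf2r (0.55) lead their lists, all far below Prl2c2 (3.35).

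Other secreted proteins that act on blood vessels were compared because proliferin is known as one. Of 15 listed, 12 were in the table, of which 7 were higher and 1 lower, against 10.4% and 10.0% of all genes (median 0.38). Vegfc (0.82), Vegfa (0.73), Thbs2 (0.62), Vegfb (0.49), Vegfd (0.38), Thbs1 (0.18) and Serpinf1 (0.10) rose. This group holds the vessel growth factors of the VEGF family as well as Thbs1, Thbs2 and Serpinf1, whose products are known to inhibit vessel growth. Vegfa went from 55.1 ± 3.41 to 92.2 ± 4.44 CPM (SD, n = 3; limma adjusted p = 5.5e-08). Angptl4 fell by 0.97. Without replicate 1 of both groups 4 of the 8 calls were left, and without replicate 3 of both groups 3.

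Markers of trophoblast cells in general, not of the proliferin-producing giant cells alone, were few in these cells. Of 15 trophoblast markers 5 were in the table, none was called by limma in either direction, and none had an unadjusted p under 0.05. Their summed level was 6.61 to 10.4 CPM in siCtrl and 6.28 to 7.02 CPM in siAldoa, most of it in siCtrl from Psg17 (5.07 ± 1.47 CPM in siCtrl and 3.65 ± 1.37 CPM in siAldoa, SD, n = 3), while Gcm1 had under 1 CPM in every library. Fibroblast markers ranged widely in siCtrl, from Col1a2 (4949 CPM), Vim (3731 CPM) and Col1a1 (3196 CPM) down to Pdgfrb (22.2 CPM) and Dcn (3.87 CPM). Lum and Postn were listed but not in the table. Of 10 measured fibroblast markers, 4 were higher (Pdgfrb, Pdgfra, Fn1 and Thy1) and 4 lower (Col1a2, Col1a1, Vim and S100a4), against 10.4% and 10.0% of all genes. The summed level of the 10 markers was 13112 to 13648 CPM in siCtrl and 10854 to 11527 CPM in siAldoa. Markers of epithelial, endothelial, blood and muscle cells summed to 28.2 to 32.9 CPM in siCtrl and to 15.4 to 24.3 CPM in siAldoa, with 8 of 12 in the table and 1, Cdh1, lower. Without replicate 3 of both groups 5 fibroblast markers were called, and Cdh1 received no adjusted p in DESeq2 and was not called without siCtrl replicate 2, siAldoa replicate 1, siAldoa replicate 3, or replicate 1 or 3 of both groups. A change in the number of expressing cells and a change in RNA per cell cannot be told apart in these bulk libraries.

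Likeness to the summed proliferin level was measured as Pearson's r of log2(CPM + 1) over the 6 libraries, among 11527 genes with a mean of at least 5 CPM. The 10 genes with the highest r were Map4k4, Skil, Slc38a2, Foxf2, Mbnl2, Ptgs2, Gm12138, Smoc1, Mepce and Fstl1, with r from 0.999 (Map4k4) to 0.997 (Fstl1). In all, 100 genes reached an r of 0.99, so the order among them is not informative with 6 libraries that fall into 2 groups. The genes had in common low scatter within both groups and a higher level in siAldoa. On the log2 scale their differences were smaller than that of the proliferin sum (3.32). They reached from 0.37 for Map4k4, a kinase of the MAP kinase cascade, to 1.67 for Gm12138. Ptgs2, which encodes the inducible cyclooxygenase, had 300 CPM in siCtrl and 872 CPM in siAldoa on average. Skil, which encodes the SMAD-binding protein SnoN, had 62.8 and 153 CPM.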

How the data were processed

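The deposited table holds CPM values, which the authors made from poly(A) RNA libraries by aligning reads to mm10 with Bowtie2 (version 2.2.7, per the labels and methods), subsampling all samples to equal read numbers, counting reads per gene and scaling to an effective library size. In the methods genes with fewer than 12 reads were dropped, but the table held 1834 such genes. Annotation release, use of strand and the treatment of multi-mapping reads are not given in the sources used here. A further file of the authors' own fold changes and p-values was not used. In each library 100% of the CPM values were whole multiples of 1 read (tolerance 0.01), so reads were recovered, with totals of 3692341 to 3771129. Replicates 1 and 2 of a group were closer to each other (chi-square per degree of freedom 1.11 to 1.12) than to replicate 3 (1.97 to 3.03), where 1 stands for counting error alone. The SDs and p-values therefore rest on a pair of replicates with little spread beyond counting error and a more distant one. Per the methods the spike-in of replicate 1 was added at another step than in replicates 2 and 3.

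Differences between siAldoa and siCtrl were tested on log2(CPM + 1) in limma (3.58.1, under R 4.3.3), two-sided and with its mean-variance trend, and p-values were adjusted by Benjamini-Hochberg for 18001 genes with a threshold of 0.05. Such fold changes understate the change of genes with few reads. The proliferin genes, being selected on this contrast, were not tested. Members and gene lists were chosen with earlier results of these data known. Named were the 3 proliferin genes, Aldoa, listed genes and neighbours (called genes first, and those whose role a sentence is about), the genes next to the proliferins in the order of log2 fold changes, and the 10 genes most like their sum. Pdgfra and Pdgfrb count in 2 lists each. Reads are without molecular identifiers, so intervals cover counting error only. Alternatives were edgeR (4.0.16) and DESeq2 (1.42.0) applied to the recovered reads, besides a pseudocount of 0.1, a filter on low values, other scalings, a replicate block and libraries left out. The fits were tested on simulated data. Transcripts were taken from GENCODE M21 (17932 of 18001 identifiers matched) and aligned with mafft (version 7.526), and promoters from RefSeq.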

Additional observations from a re-analysis of the deposited data

How the results depend on the processing

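The proliferin genes were higher in siAldoa under every alternative run, with the 3 genes exempt from the filter on low values. With libraries left out, singly or as replicate 1 or 3 of both groups, the log2 difference ranged from 3.23 to 3.44 for Prl2c2, from 2.94 to 3.04 for Prl2c3, from 1.499 to 1.86 for Prl2c5 and from 3.27 to 3.37 for the sum. The size of the change depended on how small values are treated. With a pseudocount of 0.1 it was 3.61, 3.21, 4.02 and 3.44 for Prl2c2, Prl2c3, Prl2c5 and the sum, with edgeR's quasi-likelihood test 3.62, 3.23, 4.35 and 3.46, and with DESeq2 3.63, 3.24, 4.68 and 3.46. DESeq2 called 1066 genes higher and 1117 lower, and leaving libraries out gave 494 to 1464 higher and 520 to 1371 lower (740 and 692 without replicate 1, and 494 and 520 without replicate 3 of both groups, a setting chosen after seeing the data). The cause was not tested, but fewer libraries enter the fits that leave libraries out, whereas DESeq2 used all 6 libraries.

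DESeq2 called 0 of the prolactin family and 0 markers of other cell types (Prl2c1 and Cdh1 received no adjusted p), 1 of the receptor list and 3 AP-1 genes, and the filter on low values removed Prl2c1 (0 called). With libraries left out the calls ranged from 0 to 1 in the prolactin family, from 1 to 4 in the receptor list, from 2 to 4 of AP-1, from 5 to 9 of the glucocorticoid list, from 3 to 7 of the growth factor list, from 3 to 7 of the angiogenic list, from 5 to 8 fibroblast markers, from 0 to 1 markers of other cell types and from 1 to 3 neighbours. Genes without a call changed sign as follows, with ranges over all settings that leave libraries out. Fos (from -0.22 to 0.45) was at -0.12 without siCtrl replicate 3, -0.080 without siAldoa replicate 1, and -0.014 and -0.22 without replicate 1 or 3 of both groups. Fosb (from -0.078 to 0.39) was negative without replicate 3 of both. Ghr (from -0.12 to 0.23) was at -0.084 without siAldoa replicate 1 and -0.12 without replicate 1 of both. Lgals8 (from -0.071 to 0.041) was at 0.022 and 0.041, and M6pr (from -0.089 to 0.052) at 0.029 and 0.052, without siCtrl replicate 3 and without replicate 3 of both.

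The groups share replicate numbers, and whether siCtrl and siAldoa libraries deviated together was examined across 8271 genes. Replicate 3 of siCtrl and replicate 3 of siAldoa did so most (r = 0.21). Deviations were taken from the group mean of each gene. The negative r of replicate 3 with replicates 1 and 2 of the other group (from -0.15 to -0.079) is therefore no separate result. Replicates 1 and 2 reached r = 0.040 with equal numbers and 0.053 and 0.12 with unequal ones, so their numbers do not pair them. Replicate 3 thus stood apart in a partly shared way in both groups, and the cause was not tested. The replicate block called 3170 genes against 3676, of which 3151 were shared, and 3 AP-1 genes. Of the 44 listed or neighbouring genes with a call, 40 kept it with the block, 44 in edgeR and 33 in DESeq2, where 3 received no adjusted p, and 26 without replicate 1 and 22 without replicate 3 of both groups.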
